A study of Mus musculus with 6 samples.

Results

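Transcripts of 7 genes of cholesterol synthesis and its control were measured by RNA-seq in mouse embryonic stem cells (ESCs) with and without the zinc finger protein PATZ1. The genes were picked by symbol: *Srebf2*, *Hmgcs1*, *Sqle*, *Idi1*, *Lss*, *Dhcr7* and *Insig1*, 7 of the 23420 gene symbols counted. The study examined WT cells of the E14 line and a *Patz1* KO (*Patz1* -/-) made from E14 cells with CRISPR/Cas9, both kept as ESCs with LIF and the MEK inhibitor PD0325901 and GSK3 inhibitor CHIR99021 (2i). Each genotype had 3 libraries of RNA depleted of ribosomal RNA, numbered replicate 1 to 3, and no other treatment separated them. KO lines were raised from single clones, several clones existed, and which of them gave the RNA was not stated, so that loss of PATZ1 and any other difference of the clone cannot be told apart. The comparison asks how these transcripts differed between WT and KO.

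Cholesterol is built from acetyl-CoA through mevalonate, isoprenoids, squalene and lanosterol. SREBP2, encoded by *Srebf2*, is a transcription factor held in the endoplasmic reticulum membrane by SCAP and the INSIG proteins while sterols are plentiful. When sterols fall, SCAP carries it to the Golgi, where the site-1 and site-2 proteases release its active part, which binds sterol regulatory elements (SREs), often beside NF-Y and SP1 sites, in the promoters of the synthesis enzymes, of *Insig1* and of *Srebf2* itself. Dividing cells such as ESCs need sterol for new membrane.

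The letters of 3 promoters are shown, of the regulator (*Srebf2*), an enzyme (*Hmgcs1*) and the retention factor (*Insig1*). The first and the second hold letters of a sterol element, and that of *Insig1* holds 1 NF-Y box and none of the sterol motifs searched. The sequences are RefSeq windows on GRCm38.p6 that end before the first annotated exon. All 3 are on the plus strand: chr15:82147019-82147180 for *Srebf2*, chr13:119690101-119690350 for *Hmgcs1* and chr5:28071162-28071362 for *Insig1*. Capitals mark matches to the SRE core (TCACCCCAC in *Hmgcs1*), the same letters without the last base (TCACCCCA in *Srebf2*) and the NF-Y box, which reads ATTGG here because it lies on the other strand.
Srebf2: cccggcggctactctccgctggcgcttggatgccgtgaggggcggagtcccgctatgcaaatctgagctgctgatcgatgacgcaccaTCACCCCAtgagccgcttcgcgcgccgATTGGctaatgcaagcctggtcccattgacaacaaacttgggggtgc
Hmgcs1: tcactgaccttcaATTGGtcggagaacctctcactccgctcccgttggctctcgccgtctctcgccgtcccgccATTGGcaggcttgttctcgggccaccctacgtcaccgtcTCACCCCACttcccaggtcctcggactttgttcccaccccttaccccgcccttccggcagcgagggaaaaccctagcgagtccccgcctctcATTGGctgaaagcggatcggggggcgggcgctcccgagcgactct
Insig1: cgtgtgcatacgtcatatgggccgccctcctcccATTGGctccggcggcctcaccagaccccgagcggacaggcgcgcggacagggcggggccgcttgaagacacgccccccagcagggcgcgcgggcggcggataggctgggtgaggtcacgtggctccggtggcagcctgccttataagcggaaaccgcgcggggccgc

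Motifs were searched on both strands of whole 300-base RefSeq windows, which 6 of the 7 genes had. The SRE core TCACNCCAC was found in 1.24% of all 32851 windows and in 1 of the 6 genes, *Hmgcs1*, at position -137 from the start. The shorter core CACCCCAC, which overlaps it, was in 2.87% of windows and also in *Hmgcs1* alone of the 6. TCACCCCA, a form chosen after the sequences had been read, was in 1.56% of windows and in *Hmgcs1* and *Srebf2*, in the latter at -162. The NF-Y box CCAAT was in 37.4% of windows and in a window of each of the 6 genes. A G-rich box, GGGAGGGG, of the kind bound by MAZ was in 12.2% of windows and in that of *Lss*. These matches are letters only. Binding of any factor was not analysed here.

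The targeted gene *Patz1* was checked first. In WT its normalized counts (counts divided by the size factor of the library) were 1838, 1983 and 1843, and in KO 853, 862 and 862, which is 45.5% of the WT mean (log2 fold change -1.14, SE 0.10, adjusted p 1.58e-26, DESeq2). Gene counts do not tell which stretch of the transcript the remaining reads cover. *Patz1* lies on chromosome 11, where the 1260 genes tested had a median log2 fold change of -0.27. The libraries summed to between 37573923 and 47721070 counts in replicates 1 and 2 and to 11040756 (WT) and 11420268 (KO) in replicate 3. Ribosomal *Rn45s* took 14.4% (WT) and 12.5% (KO) of counts in replicate 3 and at most 3.03% elsewhere. The 7 genes together held between 6740 and 37232 counts, 0.0610% to 0.0797% of a library. The 8 ESC markers (*Pou5f1*, *Sox2*, *Nanog* and others) summed to 117323 to 120834 normalized counts in WT and 125835 to 129306 in KO. Trophoblast markers summed to 756 to 949 and 599 to 846, primitive endoderm markers to 133 to 189 and 160 to 214, and fibroblast markers to 84.1 to 111 and 134 to 169, with *Col3a1* and *Postn* at or under 3 counts in every library. An adjusted p under 0.05 was reached by 0 of 8 ESC, 1 of 5 trophoblast, 1 of 6 primitive endoderm and 1 of 6 fibroblast markers (7.49% of genes tested, DESeq2). The part of these cells in the results was not tested.

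In KO, 6 of the sterol genes were a little higher, by 4.06% to 17.7% of the WT mean, and *Dhcr7* differed by -2.07%. *Idi1*, *Hmgcs1* and *Sqle*, an isomerase of the isoprenoid stage, the HMG-CoA synthase at the entry to the mevalonate pathway and the epoxidase of squalene, differed most, with every KO library above every WT library (for *Idi1*, with the size factors of DESeq2 but not when libraries were scaled to the same per-length total, where KO replicate 1 was below WT replicate 3). Compared by genotype alone, 0 of the 7 passed the threshold of an adjusted p under 0.05 (DESeq2), where 7.49% of the 15309 genes tested did. At an unadjusted p under 0.05, 1 of the 7 (14.3%) and 17.2% of all genes tested were counted, and edgeR gave 0 genes of the set (6.41% of its 14995 genes), with 2 of 7 at an unadjusted p under 0.05, where 21.1% of genes were. Compared within pairs of equal replicate number (the replicate block), *Idi1* and *Hmgcs1* rose, 2 of 7, where 6.68% of 14567 genes were higher past the threshold.

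**Figure D1:**
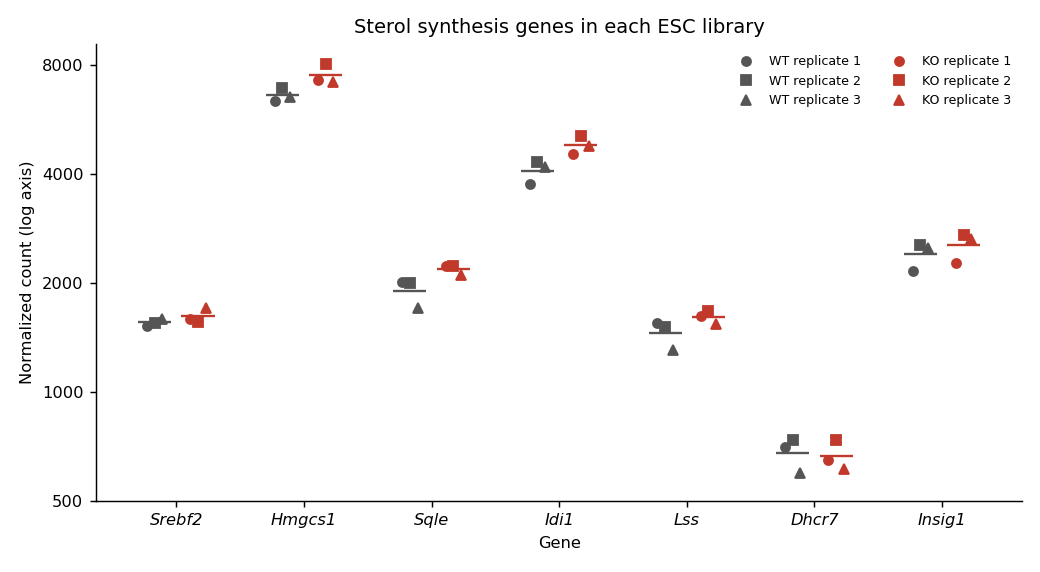
Normalized counts (vertical log axis) of the 7 genes in each of the 6 libraries, with points shaped by replicate number, coloured by genotype (WT or KO), and lines at the mean of 3 libraries. The KO points of *Hmgcs1*, *Sqle* and *Idi1* lie above all WT points, and the points of the other 4 genes mix.

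*Srebf2*, the regulator (chromosome 15, 82147181 to 82205379), was read at 1527, 1551 and 1594 normalized counts in WT and at 1595, 1563 and 1702 in KO, given here and throughout in the order of replicates 1, 2 and 3. The genotypes overlapped, since KO replicate 2 was below WT replicate 3. Means of 1557 ± 33.8 and 1620 ± 72.5 (SD, n = 3 each) gave a log2 fold change of 0.06 (SE 0.10, 95% interval -0.14 to 0.25, adjusted p 0.877, DESeq2; 0.760 with the replicate block), and 0.025 without KO replicate 3.

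*Hmgcs1* (chromosome 13, 119690379 to 119708260) encodes the cytosolic HMG-CoA synthase, which joins acetoacetyl-CoA and acetyl-CoA. Its level was 6393, 6946 and 6558 normalized counts in WT and 7277, 8054 and 7209 in KO. Replicate 2 was highest in both genotypes, and each KO library was above each WT library. From 6632 ± 284 to 7513 ± 470 (SD, n = 3 each), the log2 fold change was 0.18 (SE 0.09, 95% interval -0.0016 to 0.36). The adjusted p was 0.299 by genotype alone and 0.0108 with the replicate block (DESeq2). With the block on only 2 pairs, a fit added after the data were seen, it was 0.146, 0.511 and 0.119 without pair 1, 2 and 3, so the call needed all 3 pairs. In the annotation an exon of *Gm48342*, on the opposite strand, overlaps *Hmgcs1*, and whether strand was used in counting was not given.

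*Idi1* (chromosome 13, 8885501 to 8892451), isopentenyl-diphosphate isomerase, makes the allylic unit from which farnesyl chains grow. Counts after normalization were 3766, 4328 and 4184 in WT and 4558, 5112 and 4781 in KO. The lowest KO library, replicate 1, was above the highest WT library, replicate 2. The mean went from 4093 ± 292 to 4817 ± 279 (SD, n = 3 each), the most of the 7 genes on the log2 scale, with a log2 fold change of 0.24 (SE 0.10, 95% interval 0.041 to 0.43). *Idi1* had an adjusted p of 0.148 by genotype alone (unadjusted p 0.0178) and 0.00103 with the replicate block (DESeq2). On 2 pairs the block gave 0.0800, 0.216 and 0.0353 without pair 1, 2 and 3, so the call was lost without pair 1 or pair 2 and held without the shallow replicate 3. An exon of *Gm48574* overlaps *Idi1* on the opposite strand.

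*Sqle* (chromosome 15, 59315077 to 59331192), squalene epoxidase, takes the first oxygen-dependent step. It was counted at 2015, 2001 and 1709 after normalization in WT and 2237, 2228 and 2109 in KO. WT replicate 3, one of the shallow libraries, was well below the other WT libraries, and the genotypes did not overlap. Means of 1908 ± 173 and 2191 ± 71.6 (SD, n = 3 each) gave a log2 fold change of 0.20 (SE 0.10, 95% interval -0.0097 to 0.40), and 0.13 without WT replicate 3. It missed the threshold by genotype alone (adjusted p 0.331, DESeq2) and with the replicate block (0.0538). With the block in edgeR it passed (0.0131), where 3739 of 14995 genes did.

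*Lss* (chromosome 10, 76531588 to 76557138), lanosterol synthase, closes the sterol rings. In WT it had 1550, 1510 and 1309 normalized counts and in KO 1621, 1671 and 1546. Here KO replicate 3 lay just below WT replicate 1, so the genotypes overlapped. The log2 fold change was 0.14 (SE 0.11, 95% interval -0.069 to 0.35, adjusted p 0.590, DESeq2; 0.269 with the replicate block), from 1457 ± 129 to 1613 ± 63.1 (SD, n = 3 each). Without WT replicate 3 it was 0.077. The antisense gene *4930483K19Rik* overlaps it and had 10 to 85 counts per library against 478 to 2873 for *Lss*.

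*Dhcr7* (chromosome 7, 143823145 to 143848410), the reductase of the last step of one branch to cholesterol, had normalized counts of 706, 734 and 597 in WT and 650, 735 and 610 in KO. Replicate 2 was highest and replicate 3 lowest in both genotypes, and the ranges of the genotypes overlapped almost entirely. Means of 679 ± 72.6 and 665 ± 63.9 (SD, n = 3 each) gave a log2 fold change of -0.03 (SE 0.13, 95% interval -0.29 to 0.23, adjusted p 0.948, DESeq2; 0.894 with the replicate block), and leaving out 1 library gave values on both sides of 0 (-0.11 to 0.025).

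*Insig1* (chromosome 5, 28071363 to 28078662), which retains SCAP and is itself an SREBP2 target, had 2166, 2543 and 2505 normalized counts in WT and 2271, 2717 and 2653 in KO. Replicate 1 was low in both genotypes, and KO replicate 1 was below WT replicates 2 and 3. With means of 2405 ± 207 and 2547 ± 241 (SD, n = 3 each), the log2 fold change was 0.08 (SE 0.11, 95% interval -0.14 to 0.31, adjusted p 0.832, DESeq2; 0.512 with the replicate block). The value was 0.0094 without WT replicate 1 and 0.16 without KO replicate 1. In bulk RNA such as this, fewer expressing cells and less RNA per cell cannot be told apart.

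Within pairs, the difference in log2(normalized count + 1), KO minus WT, was above 0 in all 3 pairs for 6 of the 7 genes, where 27.2% of all genes tested were. The exception was *Dhcr7*, with -0.12, 0.0021 and 0.032 in pairs 1 to 3. *Idi1* had the highest mean, with 0.28, 0.24 and 0.19 in the 3 pairs (0.24 ± 0.042, SD, n = 3 pairs). *Hmgcs1* differed by 0.19, 0.21 and 0.14 (0.18 ± 0.039), so in both genes pair 3 was lowest but on the same side. *Sqle* and *Lss* showed the opposite order, with the highest difference in pair 3: 0.15, 0.16 and 0.30 for *Sqle* (0.20 ± 0.087) and 0.065, 0.15 and 0.24 for *Lss* (0.15 ± 0.088). *Insig1* was small but even, at 0.068, 0.096 and 0.083 (0.082 ± 0.014). *Srebf2* gave 0.063, 0.012 and 0.095 (0.057 ± 0.042). All libraries of KO were above all of WT for 3 of the 7 genes, where 11.8% of genes tested were. These counts depend on the scaling. Scaling counts to the same per-length total in each library, a check added after the data were seen, lowered the difference of the median gene by 0.025, 0.096 and 0.065 in pairs 1 to 3, and the 7 genes with it. There 4 of the 7 genes were higher in all 3 pairs, where 18.2% of genes tested were. *Srebf2* then had -0.084 in pair 2 and a mean of -0.0053, *Insig1* was level in pair 2 with a mean of 0.020, and *Dhcr7* was below 0 in each pair. All KO libraries were above all WT libraries for *Hmgcs1*, *Sqle* and *Lss* on that scaling (7.49% of genes tested), and not for *Idi1*.

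**Figure D2:**
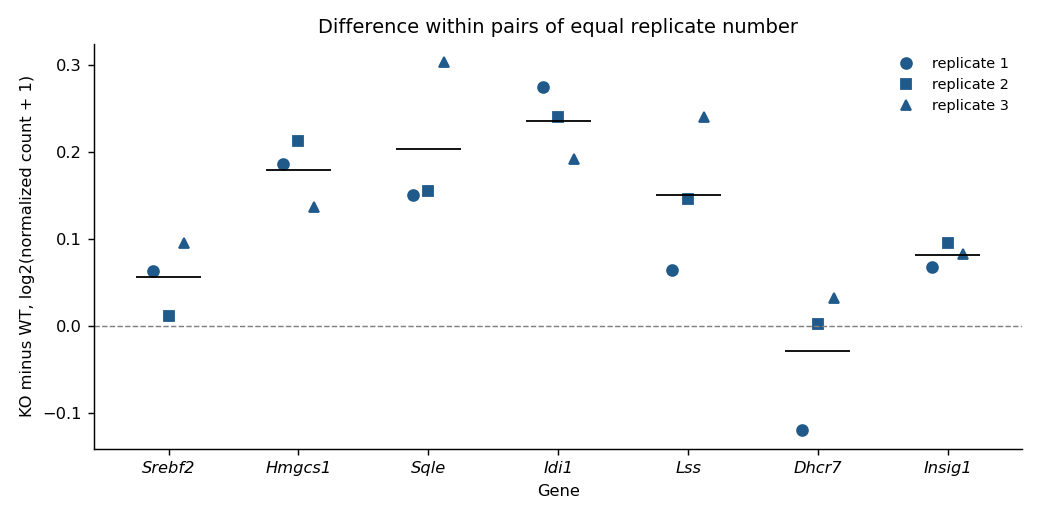
Difference KO minus WT in log2(normalized count + 1) for each of the 7 genes, with 1 point for each pair of equal replicate number and a line at the mean of 3 pairs. All points lie above 0 but that of *Dhcr7* in pair 1, at -0.12. On the per-length scaling, not drawn, *Srebf2* in pair 2 and *Dhcr7* in all 3 pairs were below 0 and *Insig1* was level in pair 2.

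With the size factors of DESeq2, replicates of the same number moved together, in more than 1 pattern among the genes. Relative to the mean of their genotype on the log2 scale, *Sqle*, *Lss* and *Dhcr7* were low in replicate 3 of both genotypes, by values of -0.16 and -0.055 (WT and KO) for *Sqle*, -0.15 and -0.060 for *Lss* and -0.18 and -0.12 for *Dhcr7*. *Insig1* and *Idi1* were instead low in replicate 1, at -0.15 and -0.16 for *Insig1* and -0.12 and -0.078 for *Idi1*. *Srebf2* was highest in replicate 3 of both, at 0.034 and 0.072. These patterns depend on the scaling. Taken per kilobase of merged exons on the per-length scaling, *Sqle* in KO was at 64.0, 61.6 and 63.2 and *Lss* in KO at 27.4, 27.3 and 27.4. Both genes were then low in replicate 3 of WT alone. The regulator and its targets thus differed in their order over the replicates as measured, and whether this exceeds counting error was not tested. In replicate 3, *Srebf2* had 582 (WT) and 644 (KO) counts. Of 11463 other genes with a mean of at least 50 normalized counts, the 5 nearest to the mean profile of the 7 over the 6 libraries were *Herc4*, *Nudt4*, *Sacm1l*, *Cops2* and *Cog6*. They lay at root mean square distances of 0.019 to 0.024 (log2), the lowest of those searched by this measure. The 7 genes themselves lay farther from their mean profile, at 0.040 (*Hmgcs1*) to 0.113 (*Dhcr7*).

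Levels were compared between genes as counts per kilobase of merged exons, scaled to the same total in each library. The order by this level was *Hmgcs1* (158 ± 8.91 in WT and 171 ± 5.82 in KO), *Idi1* (112 ± 10.6 and 126 ± 6.38), *Insig1* (73.9 ± 8.35 and 74.9 ± 7.65), *Sqle* (57.1 ± 3.06 and 62.9 ± 1.20), *Lss* (25.8 ± 1.31 and 27.4 ± 0.045), *Srebf2* (25.4 ± 1.57 and 25.3 ± 2.16) and *Dhcr7* (16.9 ± 1.25 and 15.9 ± 0.922; SD, n = 3 each). *Lss* and *Srebf2* overlapped, *Lss* being higher in 4 of 6 libraries. The other neighbours in this order did not overlap over the 6 libraries.

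The rest of the pathway was read from a list of 17 further enzymes. Of these, 15 had a log2 fold change above 0, and the median was 0.14 (-0.12 to 0.39), as it was 0.14 (-0.03 to 0.24) for the 7 genes and 0.0087 for all genes tested, of which 51.6% were above 0. *Cyp51* and *Sc5d* rose, 2 of 17 where 2.7% of all genes tested rose, and 0 fell (DESeq2). At an unadjusted p under 0.05 there were 3 of 17 by either tool (17.2% of all genes in DESeq2 and 21.1% in edgeR). With the replicate block, 4 of the 17 rose where 6.68% of genes did: *Cyp51*, *Sc5d*, *Msmo1* and *Lbr*. With the block on 2 pairs the count was 2, 1 and 3 without pair 1, 2 and 3, where 5.85%, 4.19% and 8.1% of all genes passed in either direction against 14.6% with all pairs. In all 3 pairs 10 of the 17 were higher in KO (27.2% of all genes; 7 of 17 and 18.2% on the per-length scaling), and in 5 every KO library was above every WT library (11.8%). With the 5 enzymes among the 7 genes this makes 22 enzymes, of which 19 were above 0, 2 passed by genotype alone and 6 with the block.

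**Figure D3:**
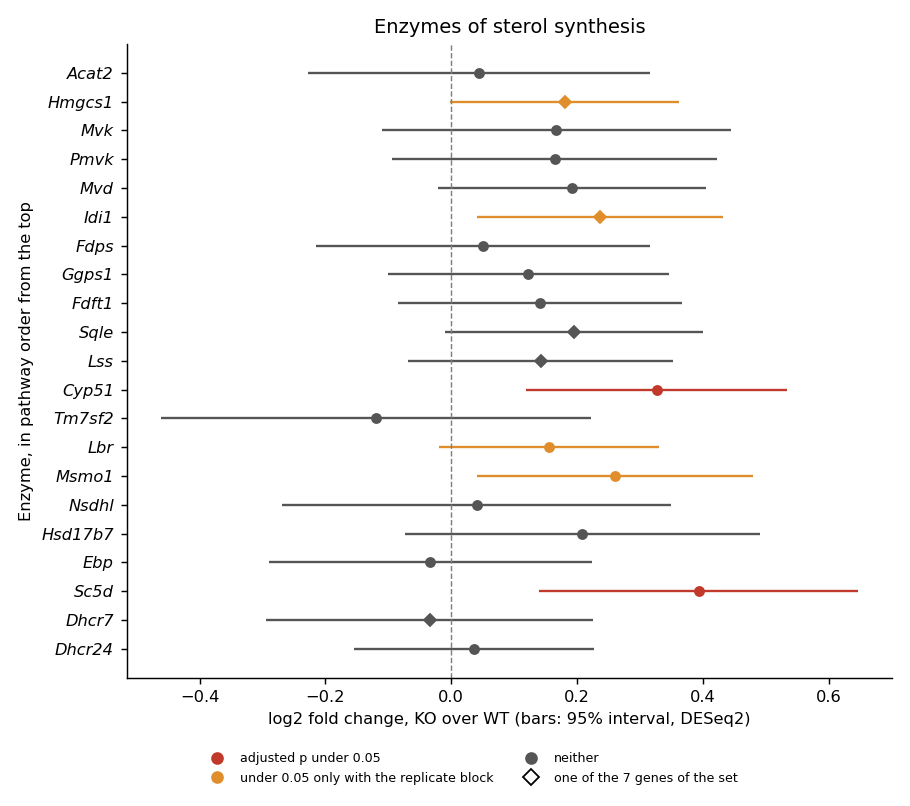
Log2 fold change, KO over WT, of 21 sterol synthesis enzymes in pathway order, with bars for the 95% interval (DESeq2), diamonds for the enzymes among the 7 genes and colours for the adjusted p. The points of 18 enzymes lie to the right of 0 and those of *Tm7sf2*, *Ebp* and *Dhcr7* to the left, and only *Cyp51* and *Sc5d* passed by genotype alone. Of the 22 enzymes counted in the text, a gene not reported here by name is not drawn.

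*Cyp51*, lanosterol demethylase, acts right after *Lss*. It had 1869, 2023 and 1673 normalized counts in WT and 2318, 2420 and 2262 in KO, with no overlap. From 1855 ± 175 to 2333 ± 80.0 (SD, n = 3 each), it rose by 0.33 on the log2 scale (SE 0.11, adjusted p 0.0309, DESeq2; 0.000174 with the replicate block). The call was lost in edgeR (0.0554) and without WT replicate 1 (0.166) or 3 (0.0858) or KO replicate 1 (0.188) or 2 (0.249), and with the block it held without each pair.

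*Sc5d*, lathosterol oxidase, makes the substrate of *Dhcr7*. It had 599, 607 and 567 normalized counts in WT and 827, 826 and 661 in KO, so KO replicate 3 was far lower than the other KO libraries but above all WT libraries. From 591 ± 21.5 to 771 ± 95.9 (SD, n = 3 each), it rose by 0.39 on the log2 scale (SE 0.13, adjusted p 0.0350, DESeq2; 0.00260 with the replicate block). *Sc5d* lost the call in edgeR (0.0533) and without WT replicate 1 (0.183), 2 (0.160) or 3 (0.0681) or KO replicate 1 (0.338) or 2 (0.320), and kept it without KO replicate 3 (0.00351). With the block its call was lost without pair 1 (0.283) or pair 2 (0.391).

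*Msmo1*, methylsterol monooxygenase, and *Lbr*, the lamin B receptor, which is also a sterol reductase, were named after their values were seen. *Msmo1* had 2893, 2963 and 2588 normalized counts in WT and 3375, 3739 and 2994 in KO (log2 fold change 0.26, SE 0.11, adjusted p 0.162, DESeq2; 0.00128 with the replicate block). *Lbr* had 5158, 5485 and 5052 in WT and 5769, 6066 and 5650 in KO (log2 fold change 0.16, adjusted p 0.383; 0.0424 with the block). Neither overlapped between genotypes. On 2 pairs, the block call of *Msmo1* was lost without pair 2 (0.371), and that of *Lbr* without pair 1 (0.310), pair 2 (0.550) or pair 3 (0.341).

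The machinery that senses sterols and cleaves SREBPs was read from a further list. Of 10 genes, 6 had a log2 fold change above 0, the median was 0.03, and 1 passed (DESeq2), *Mbtps2*, the site-2 protease, where 51.6% of all genes tested were above 0 and 7.49% passed. At an unadjusted p under 0.05 there were 4 of 10, in DESeq2 and in edgeR, where 17.2% and 21.1% of all genes were. *Mbtps2* had 624, 741 and 879 normalized counts in WT and 935, 1060 and 1007 in KO (log2 fold change 0.44, SE 0.14, adjusted p 0.0278; 0.000201 with the replicate block). *Mbtps2* lies on the distal part of X, where the 236 genes tested had a median log2 fold change of 0.42. Its call was lost in edgeR (0.0744) and without WT replicate 1 (0.310) or 2 (0.165) or KO replicate 1 (0.102), 2 (0.261) or 3 (0.0733), and with the block without pair 1 (0.132) or pair 2 (0.202). *Mbtps1*, the site-1 protease, and *Rnf145*, a ubiquitin ligase, had log2 fold changes of 0.10 (adjusted p 0.684) and -0.08 (0.803). *Mbtps1* was at 0.062 without WT replicate 2, and *Rnf145* at -0.044 without WT replicate 1 and -0.13 without WT replicate 3. *Srebf1*, the gene of SREBP1 and named after its values were seen, had 1739, 1980 and 1553 in WT and 1442, 1574 and 1266 in KO (log2 fold change -0.30, SE 0.13, adjusted p 0.147). With the replicate block *Srebf1* fell (0.00146), where 7.95% of genes were lower past the threshold, but not without pair 1 (0.0703) or pair 2 (0.317).

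Sterol uptake and transport gave 0 of 9 genes past the threshold, and 0 at an unadjusted p under 0.05 (DESeq2), where 7.49% and 17.2% of all genes tested were. In edgeR these counts were 0 and 2, where the shares of all genes were 6.41% and 21.1%. The median log2 fold change was -0.04. *Npc2*, a lysosomal cholesterol carrier, had a log2 fold change of 0.14 (adjusted p 0.601), which was 0.050 without KO replicate 2 and 0.094 without WT replicate 3.

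Genes of the sterol sensor LXR, of efflux and of esterification had 5 of 7 log2 fold changes above 0 (median 0.21; 51.6% of all genes tested), and *Ch25h* was at 0 counts in every library. *Apoe*, the apolipoprotein that takes up cholesterol leaving the cell, passed, 1 of 7 where 7.49% of all genes did (2 of 7 at an unadjusted p under 0.05 by either tool, where 17.2% and 21.1% did), with 2982, 2584 and 2700 normalized counts in WT and 3260, 3395 and 3435 in KO (log2 fold change 0.29, SE 0.10, adjusted p 0.0486, DESeq2; 0.00127 with the replicate block). The libraries did not overlap, but the call was lost in edgeR (0.0610) and limma-voom (0.0514), with size factors outside chromosomes 11, X and Y (0.0712), with the count filter (0.0516), without independent filtering (0.0614), without both replicate 3 libraries (0.0863) and without WT replicate 2 (0.343) or 3 (0.0856) or KO replicate 1 (0.182), 2 (0.260) or 3 (0.128). With the block it was lost without pair 2 (0.338) or pair 3 (0.0907). *Abca1*, the efflux transporter, had 689, 833 and 961 in WT and 976, 1068 and 1094 in KO (log2 fold change 0.35, SE 0.14, adjusted p 0.103), and rose with the replicate block (0.00239), making 2 genes of the list where 6.68% of all genes rose, a call lost without pair 1 (0.310) or pair 2 (0.274). Without WT replicate 1 its log2 fold change was 0.23. *Nr1h2*, which encodes an LXR, differed by -0.18 on the log2 scale (adjusted p 0.609, and 0.205 with the replicate block). It passed with the block in edgeR (0.0380), where 3739 of 14995 genes did. It was at -0.068 without KO replicate 3 and -0.12 without WT replicate 2.

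Fatty acid synthesis is the pathway tied to SREBP1. Of its 12 genes, 4 had a log2 fold change above 0 (51.6% of all genes tested) and 8 below, with a median of -0.08, and 1 fell where 4.78% of all genes did (DESeq2). At an unadjusted p under 0.05 there were 3 of 12 by either tool (17.2% and 21.1% of all genes). *Fasn*, fatty acid synthase, had 14762, 14145 and 13619 normalized counts in WT and 11264, 11038 and 11511 in KO, with a wide gap between the genotypes (log2 fold change -0.33, SE 0.08, adjusted p 0.00242; 5.80e-08 with the replicate block). It missed the threshold without KO replicate 1 (0.0543) or KO replicate 2 (0.0638). *Fasn*, *Acly*, *Acaca*, *Srebf1* and *Rnf145* lie on chromosome 11, as does *Patz1*. The 1260 genes tested there had a median log2 fold change of -0.27, 86.6% of them below 0. *Acly* and *Scd2* had log2 fold changes of -0.16 (adjusted p 0.466; -0.091 without WT replicate 1) and -0.04 (0.932). With the block *Scd1* rose (log2 fold change 0.29, adjusted p 0.00318, against 0.0718 by genotype alone) and *Elovl6* fell (-0.17, 0.0298 against 0.263), both named after their values were seen. *Scd1* lost this call without pair 1 (0.0921) or pair 2 (0.466), and *Elovl6* without pair 1 (0.237), 2 (0.478) or 3 (0.338). The part of the shifts of chromosome 11 and of X in these single values was not tested. The 7 genes lie on chromosomes 5, 7, 10, 13 and 15, and the 13336 genes tested on autosomes other than 11 had a median of 0.02.

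**Figure D4:**
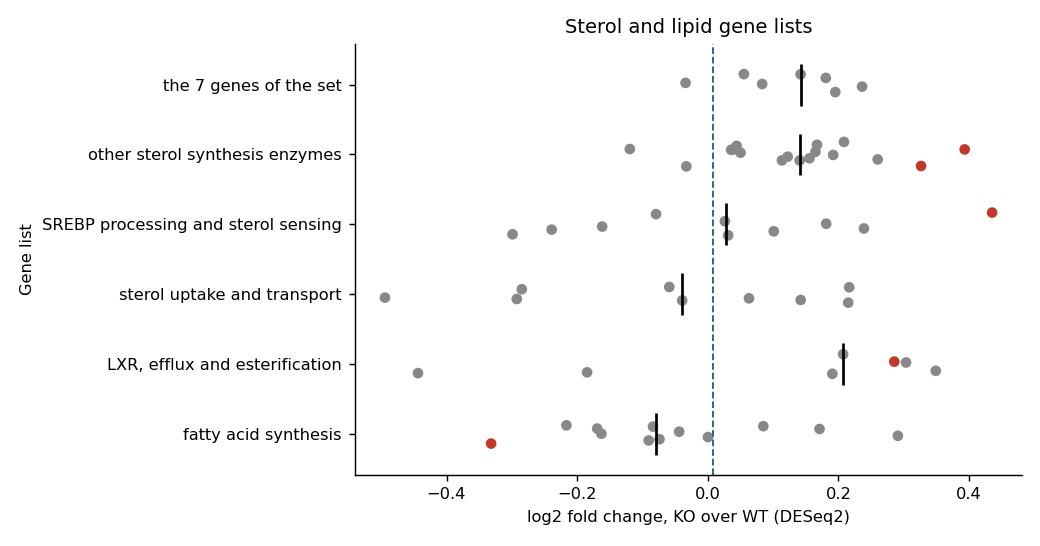
Log2 fold change, KO over WT (DESeq2), of each gene in 6 lists of sterol and lipid genes, with red points for an adjusted p under 0.05, black lines at list medians and a dashed line at the median of all genes tested (0.0087). The medians of the 7 genes and of the other enzymes both lie at 0.14, and that of fatty acid synthesis at -0.08.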

How the data were processed

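RNA-seq of WT and *Patz1* KO ESCs was deposited as read counts per gene symbol, 1 file per library, with no normalization by the authors. Submitters' processing notes name mm10, TopHat2 2.1.1, Bowtie2 2.3.1.0, featureCounts 1.6.2 and DESeq2. The annotation, the strand setting and how duplicates were handled were not given in the sources used here.

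The Wald test of DESeq2 (1.42.0, R 4.3.3; median-of-ratios size factors, independent filtering at 0.1) was run on all 23420 symbols with genotype as the term, two-sided, with Benjamini-Hochberg adjustment over all genes tested. Log2 fold changes are KO over WT. Alternatives were edgeR (4.0.16, quasi-likelihood), limma-voom (limma 3.58.1), TMM size factors, size factors from genes outside chromosomes 11, X and Y, a minimum of 10 counts in 3 or more libraries, fits lacking independent filtering, the replicate block in DESeq2 and edgeR, leaving out each library or both replicate 3 libraries, and, added after the data were seen, the block on 2 pairs and scaling to the same per-length total. The code was tested on simulated data.

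Replicate numbers in the titles paired the libraries: over 11524 genes, log2 levels less the mean of the genotype had correlations of 0.469, 0.619 and 0.684 between WT and KO libraries of equal number, and of -0.54 to 0.14 between the others. The study calls its replicates biological and defines this by separate rounds of differentiation. What separated replicates of undifferentiated ESCs was not given in the sources used here, so p-values measure the spread between these libraries. A floor of 3 counts equalled 1.69 to 8.21 normalized counts and covers counting error only.

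The 7 genes and the lists were chosen with earlier results of these data known. Named genes were the 7, *Patz1*, list genes past the threshold (up to 6, with the 2 of highest mean added where fewer than 2 passed) and the 5 nearest profiles. A further pair of genes in the lists is counted there and not reported here by name. Positions came from GENCODE M21 (GRCm38, the build of mm10) for 23037 symbols, 1260 through an older symbol, *Msmo1* being listed as *Sc4mol*.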

Additional observations from a re-analysis of the deposited data

How the results depend on the processing

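Of 126 alternative log2 fold changes of the 7 genes, 117 kept their direction and their side of the threshold, 6 passed it and 3 changed sign. The within-pair differences moved by less than the spread between pairs with a pseudocount of 0.5 or TMM size factors. On the per-length scaling, which moved the median of all genes by -0.06, the mean difference was -0.0053 for *Srebf2*, 0.12 for *Hmgcs1*, 0.17 for *Idi1* and 0.020 for *Insig1*. It was 0.14 for *Sqle*, 0.088 for *Lss* and -0.091 for *Dhcr7*, moves of less than that spread. Replicate numbers paired the libraries, and the replicate block gave 0.18 for *Hmgcs1* (adjusted p 0.0108) and 0.24 for *Idi1* (0.00103), both past the threshold. With the block in edgeR, *Hmgcs1* (0.18, 0.0154), *Sqle* (0.19, 0.0131) and *Idi1* (0.24, 0.00213) passed, where 3739 of 14995 genes did. Leaving out 1 library, or 1 pair with the block, gave -0.11 to 0.025 for *Dhcr7*, 0.18 to 0.28 for *Idi1*, 0.13 to 0.22 for *Hmgcs1*, 0.13 to 0.23 for *Sqle*, 0.077 to 0.19 for *Lss*, 0.025 to 0.082 for *Srebf2*, 0.0094 to 0.16 for *Insig1* and -0.19 to 0.042 for *Scd2*. *Insig1* was lowest without WT replicate 1 and highest without KO replicate 1, *Srebf2* lowest without KO replicate 3, and *Sqle* and *Lss* lowest without WT replicate 3. *Dhcr7* was above 0 without WT replicate 2, KO replicate 3 or pair 1, and *Scd2* without these or KO replicate 1.

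With the block, 2 of the 7 genes, 4 of 17 other sterol enzymes and 2 of 10 genes of SREBP processing passed the threshold. So did 2 of LXR and efflux and 3 of 12 of fatty acid synthesis, where 14.6% of all genes (2131) passed. With the block in edgeR the counts were 3, 5, 4, 4 and 3 in the same order, and 2 of 9 of uptake, where 3739 of 14995 genes passed. edgeR without the block gave 0 other sterol enzymes and 0 genes each of SREBP processing and LXR and efflux. For LXR and efflux the count was 0 also with limma-voom, with size factors outside chromosomes 11, X and Y, with the count filter and without independent filtering. Without both replicate 3 libraries fatty acid synthesis had 2. Leaving out 1 library or pair gave 0 to 1 of the 7 genes, 0 to 3 other sterol enzymes, 0 to 2 of SREBP processing, 0 to 1 of LXR and efflux, 0 to 2 of fatty acid synthesis and 578 to 1341 of all genes. The cause of these moves was not tested. Of 360 alternative values of the other named genes, 296 kept their call, 36 missed the threshold, 24 passed it and 4 changed sign. Of the 7 genes, depth limits *Dhcr7* most, with 218 and 231 counts in the replicate 3 libraries.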
